A study of Homo sapiens with 4 samples.

Results

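In HCT116 cells given N_12, 10 genes of the integrated stress response were followed, out of 20263 genes in the count table: the transcription factors ATF3, ATF4, ATF5, DDIT3 (CHOP), CEBPB and CEBPG, the transcriptional regulators TRIB3 and NUPR1, the glutathione-degrading enzyme CHAC1 and the phosphatase subunit PPP1R15A (GADD34). They were picked by symbol, with the fold changes of this same comparison already known and ATF5 as the lead. Their values here are therefore a description of the 10 genes. Their p-values are not printed, and their calls and intervals are given as description only. HCT116 is an established human colon cancer line. The N_12 group held 2 libraries of cells given N_12 for 24 h, and the DMSO group held 2 libraries of cells given the solvent for 24 h. The series title calls N_12 a nilotinib derivative (nilotinib inhibits tyrosine kinases), and the treatment field of its samples carries a different code, HJJ_3_5; the dose is not stated. Nothing in the labels says whether the libraries of a group came from separate cultures, so the spread between them may be technical, and fewer expressing cells cannot be told apart from less RNA per cell.

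In the integrated stress response, kinases that sense amino acid shortage, misfolded protein in the endoplasmic reticulum, double-stranded RNA or mitochondrial damage phosphorylate the initiation factor eIF2. General translation falls, while mRNAs with upstream open reading frames, among them those of ATF4, ATF5, DDIT3 and PPP1R15A, are translated better, and ATF4 then switches on genes for amino acid synthesis, amino acid uptake and tRNA charging. Much of the control of ATF4 and ATF5 therefore acts on the protein, which mRNA counts do not measure.

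The 10 genes split. ATF5, a basic leucine zipper factor related to ATF4, was 5.84-fold higher in N_12, and TRIB3, a pseudokinase that binds ATF4 and dampens it, was 2.29-fold higher. DDIT3, the pro-apoptotic factor CHOP, was 1.79-fold lower, PPP1R15A differed by a log2 fold change of 0.02, and ATF4 itself by 0.25. By edgeR's quasi-likelihood fit over 14105 genes (adjusted p under 0.05), 2 of the 10 were called higher and 0 lower, where 2.25% of all tested genes were called (0.822% higher and 1.43% lower). At an unadjusted p under 0.05 that fit had 4 higher and 1 lower, where 3081 of the 14105 tested genes passed that cut. DESeq2 called 3 higher and 1 lower (of its genes, 9.83% called, 4.42% higher and 5.41% lower). By limma-voom 2 were higher and 0 lower (0.929% called, 0.333% higher and 0.596% lower). Because the comparison that chose the genes is the one that called them, nothing is read from these counts. The median log2 fold change of the 10 was 0.35, beside 0.01 over all tested genes, and it was 0.23 without DMSO replicate 2.

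Total counts were 41717938 and 39865327 in the N_12 libraries and 31120459 and 29769568 in the DMSO libraries, and all 10 genes passed the filter on low counts. The epithelial markers EPCAM, KRT8, KRT18, KRT19, CDH1, CLDN4 and CDX2 were present (8 listed markers summed to 3421 to 4070 CPM, counts scaled to a common library total after TMM normalization, in N_12 and 4099 to 5065 CPM in DMSO), whereas VIL1 stood at 0.0728 CPM in N_12 and 0.0656 CPM in DMSO. Of the markers of other cells, PTPRC, CD3E, COL1A2, DCN and LUM had 0 counts in every library. The 5 leukocyte markers summed to at most 0.878 CPM and the 5 endothelial markers to at most 2.45 CPM. COL1A1 supplied nearly all of the fibroblast markers' sum, which was 55.5 to 60.2 CPM in N_12 and 61.2 to 64.9 CPM in DMSO.

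ATF5 had 19.1 and 17.9 CPM in N_12 replicates 1 and 2, against 3.31 and 3.03 CPM in DMSO replicates 1 and 2. Every N_12 library lay far above every DMSO library, and the libraries differed 1.07-fold within N_12 and 1.09-fold within DMSO. The log2 fold change was 2.55 (SE 0.19, 95% interval 2.10 to 2.99), the 23rd highest of all tested genes. It rested on 805 and 731 counts in N_12 and on 101 and 89 counts in DMSO. The annotation places 21.2% of the exon bases of ATF5 opposite exons of NUP62, a nuclear pore gene on the other strand, and the strand setting of the counting is not given in the sources used here. NUP62 had 101.6 ± 4.46 CPM in N_12 and 62.8 ± 17.1 CPM in DMSO (SD, n = 2 each), a log2 fold change of 0.69 that was not called. Reads from the shared stretch cannot be told apart between the 2 genes without strand.

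ATF4, the central factor of the response, had 765 and 731 CPM in N_12, against 656 and 605 CPM in DMSO. The N_12 libraries lay above the DMSO libraries, with a log2 fold change of 0.25 (SE 0.12) whose interval, -0.04 to 0.53, included both signs. It was by a wide margin the most abundant of the 10, and its mRNA level differed far less between the groups than that of ATF5. Per kilobase of exon, ATF4 exceeded ATF5 by 47.0 and 47.9 times in the N_12 libraries and by 233 and 235 times in the DMSO libraries.

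DDIT3 went the other way. It had 37.8 and 46.7 CPM in N_12, against 88.0 and 62.9 CPM in DMSO. The groups did not overlap, N_12 being the lower, and the log2 fold change was -0.84 (SE 0.20, 95% interval -1.31 to -0.36), which edgeR did not call. Without DMSO replicate 1 it was -0.57, and without DMSO replicate 2 it was -1.06 and passed the threshold, as it did with all libraries in DESeq2. The exons of DDIT3 lie opposite those of MARS1, the methionyl-tRNA synthetase gene, over 27.2% of their bases. MARS1 was called higher (221 ± 28.2 CPM in N_12 and 121 ± 6.16 CPM in DMSO). DDIT3 also shares 4.44% of its exon bases with MBD6 on the other strand and 8.03% with AC022506.1 on the same strand. Without the strand setting, reads from the stretch shared with MARS1 cannot be assigned. Their part in the DDIT3 values was not tested.

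ATF3, an early stress factor that represses and activates transcription with different partners, had 45.3 and 52.9 CPM in N_12, against 97.3 and 45.1 CPM in DMSO. The DMSO libraries differed 2.16-fold from each other, and the groups overlapped. Its direction hung on a single library: the log2 fold change was -0.54 with all libraries (95% interval -1.64 to 0.57), 0.12 without DMSO replicate 1, and -0.99 and past the threshold without DMSO replicate 2.

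**Figure D1:**
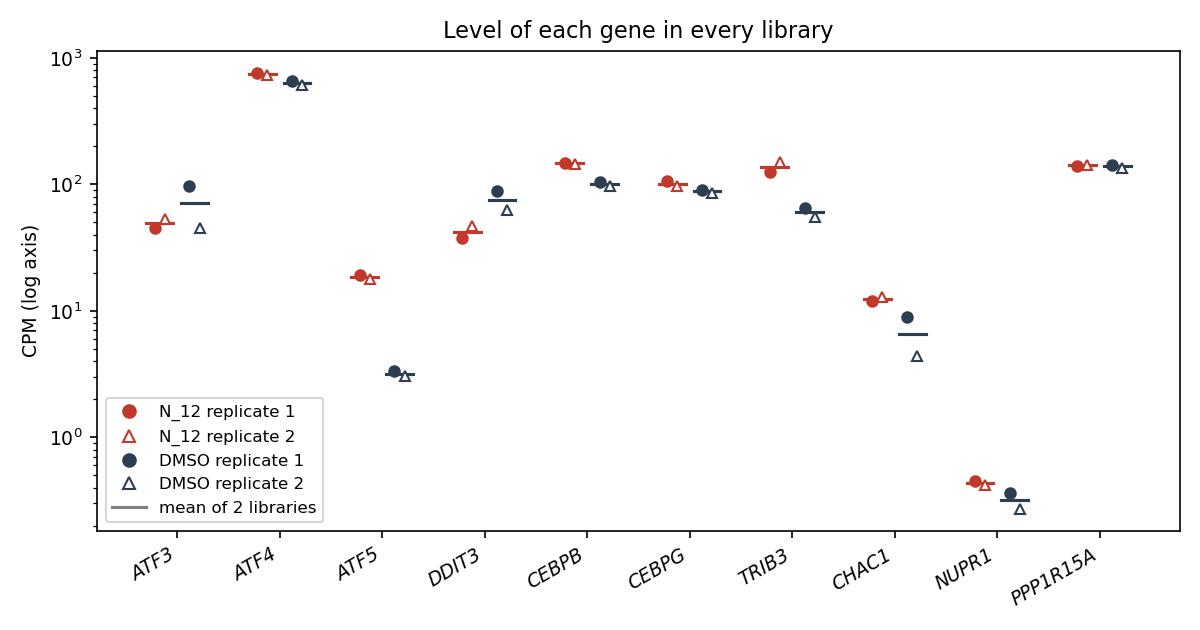
Level of each of the 10 genes in CPM (log axis) in the 2 N_12 and 2 DMSO libraries, with a bar at each mean. ATF5 (17.9 to 19.1 CPM in N_12 and 3.03 to 3.31 CPM in DMSO) shows the widest gap between groups, while the DMSO points differ 2.16-fold for ATF3 and 2.03-fold for CHAC1.

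Of the C/EBP members, which pair with ATF4 and CHOP, CEBPB differed more between the groups than CEBPG. CEBPB had 149 and 146 CPM in N_12, against 104 and 97.3 CPM in DMSO. Its groups were well apart, with a log2 fold change of 0.55 (SE 0.13, 95% interval 0.25 to 0.85) that edgeR did not call and DESeq2 did. CEBPG, a C/EBP protein without an activation domain that forms heterodimers with ATF4, had 106 and 96.6 CPM in N_12, against 90.5 and 86.0 CPM in DMSO. The groups did not overlap, but its interval of -0.11 to 0.51 included both signs.

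Among genes that ATF4 and CHOP act on, TRIB3 had 126 and 150 CPM in N_12, against 65.2 and 55.5 CPM in DMSO. The groups were well apart, and the log2 fold change was 1.19 (SE 0.16, 95% interval 0.83 to 1.56). CHAC1, which cleaves glutathione in the cytosol, had 11.9 and 12.9 CPM in N_12, against 8.85 and 4.35 CPM in DMSO. Although the groups did not overlap, DMSO replicate 1 was 2.03-fold above DMSO replicate 2. The log2 fold change of CHAC1, 0.91 (95% interval 0.10 to 1.71, not called), was 1.51 and past the threshold without DMSO replicate 1 and 0.48 without DMSO replicate 2. PPP1R15A, which brings a phosphatase to eIF2 and so ends the response, had 141 and 141 CPM in N_12, against 143 and 135 CPM in DMSO, with overlapping groups and an interval of -0.27 to 0.32. NUPR1, a small stress-induced chromatin regulator, had only 19 and 17 counts in N_12, against 11 and 8 counts in DMSO. At 0.434 ± 0.0241 CPM in N_12 and 0.316 ± 0.0627 CPM in DMSO (SD, n = 2 each) its interval ran from -0.76 to 1.66. A rise or fall within that range could not be told from no change at this depth.

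In all, 7 of the 10 had both N_12 libraries above both DMSO libraries, 1 had both below and 2 overlapped; among all tested genes 54.7% did not overlap (27.9% above and 26.8% below). DMSO replicate 1 exceeded DMSO replicate 2 for every one of the 10 genes, by 1.05-fold (CEBPG) to 2.16-fold (ATF3). How many of all tested genes had that order was not counted, so it is not read as a trait of the 10. The N_12 libraries differed from each other by at most 1.23-fold (DDIT3).

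**Figure D2:**
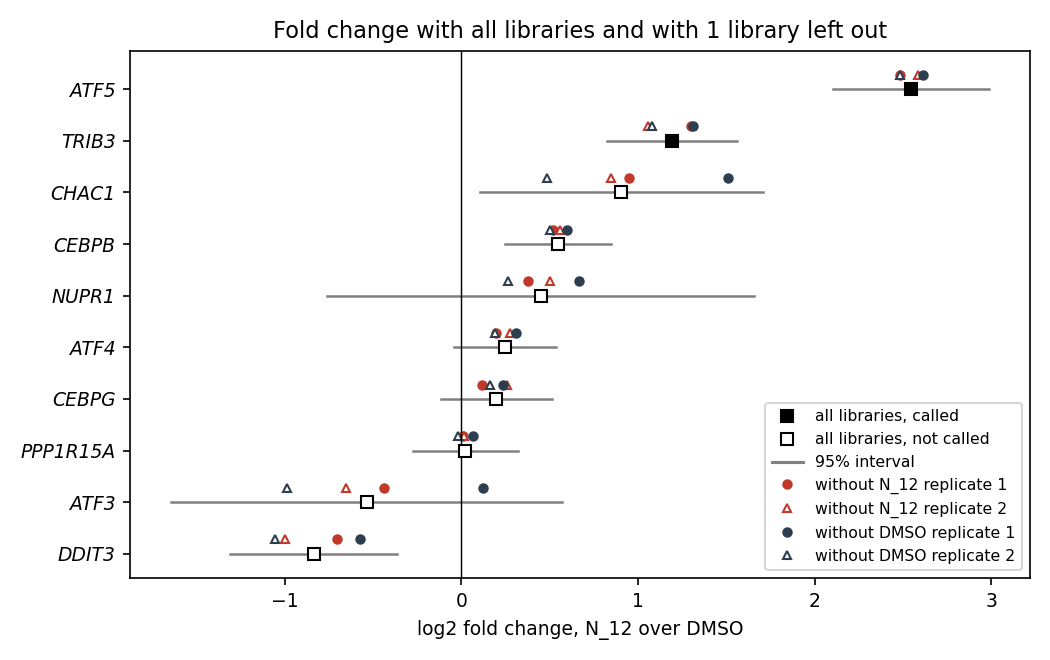
Log2 fold change (N_12 over DMSO) of each gene with all 4 libraries (square, filled where edgeR called it) and its 95% interval, and the same value with 1 library left out (circles and triangles). ATF5 stays between 2.48 and 2.61 and TRIB3 between 1.05 and 1.31 whichever library is left out, though both lose the call without either N_12 library, whereas ATF3 runs from -0.99 to 0.12 and CHAC1 from 0.48 to 1.51 with the choice of DMSO library.

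Levels of different genes were compared per kilobase of exon, a scale on which the length is that of all annotated exons and so understates genes with long unused exons. In N_12 the order was ATF4 (297 ± 9.50 CPM per kb, SD, n = 2), CEBPB (75.2 ± 1.04), PPP1R15A (45.6 ± 0.159), TRIB3 (40.2 ± 5.10), DDIT3 (32.3 ± 4.78), CEBPG (22.9 ± 1.48), ATF3 (12.2 ± 1.34), ATF5 (6.27 ± 0.282), CHAC1 (6.02 ± 0.339) and NUPR1 (0.0765 ± 0.00424). The libraries of ATF5 and CHAC1 overlapped on this scale and the other neighbours did not. In DMSO the order was ATF4 (251 ± 14.4 CPM per kb), DDIT3 (57.7 ± 13.6), CEBPB (51.5 ± 2.46), PPP1R15A (44.9 ± 1.94), CEBPG (19.5 and 20.5 in its libraries), ATF3 (17.6 ± 9.14), TRIB3 (17.6 ± 1.99), CHAC1 (3.21 ± 1.55), ATF5 (1.07 ± 0.0683) and NUPR1 (0.0558 ± 0.0110). There DDIT3 overlapped CEBPB, and ATF3 overlapped both CEBPG and TRIB3. TRIB3 thus ranked 4 in N_12 and 7 in DMSO, DDIT3 ranked 5 in N_12 and 2 in DMSO, and ATF5 ranked 8 in N_12 and 9 in DMSO.

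Ratios of 2 genes within a library do not depend on how libraries are scaled. TRIB3 over DDIT3, per kilobase, was 1.26 and 1.23 in N_12, against 0.282 and 0.336 in DMSO. CEBPB over DDIT3 was 2.63 and 2.09 in N_12, against 0.791 and 1.03 in DMSO. Both ratios were higher in every N_12 library than in every DMSO library. That separation was fixed by the levels given above and adds nothing to them. TRIB3 and CEBPB were each higher in both N_12 libraries, DDIT3 was lower in both, and the genes were chosen with their fold changes known. CEBPB over CEBPG differed less, at 3.17 and 3.40 in N_12 and 2.60 and 2.55 in DMSO.

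**Figure D3:**
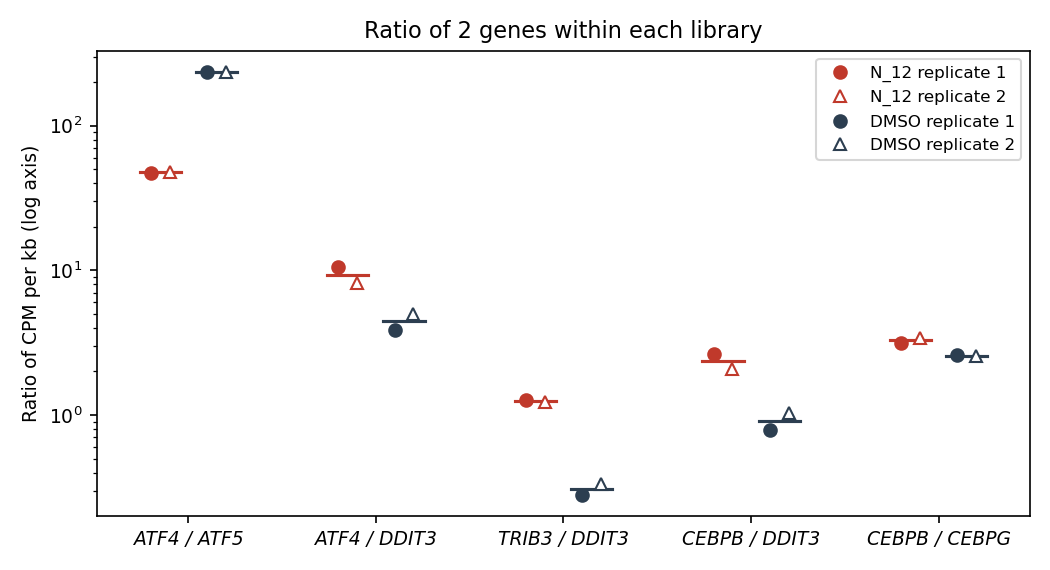
Ratio of 2 genes' levels per kilobase of exon within each library (log axis), N_12 left of DMSO in each pair. The ratio of ATF4 to ATF5 is 47.0 to 47.9 in N_12 and 233 to 235 in DMSO, and that of TRIB3 to DDIT3 is 1.23 to 1.26 in N_12 and 0.282 to 0.336 in DMSO.

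The genes whose profile over the 4 libraries was most like that of ATF5, by the root mean square difference of log2 CPM from the DMSO mean, were TMEM250 (0.179), KBTBD11-OT1 (0.230), the zinc finger gene ZNF24 (0.341), the galactosyltransferase gene B3GALT5 (0.472) and the read-through gene NDUFC2-KCTD14 (0.567). None of them is among the 10 genes or their listed pathway genes. NDUFC2-KCTD14 was low, at 1.82 ± 0.487 CPM in N_12 and 0.264 ± 0.229 CPM in DMSO (SD, n = 2 each), and edgeR did not call it. TMEM250 averaged 44.2 ± 7.97 CPM in N_12 and 8.13 ± 0.286 CPM in DMSO, and B3GALT5 averaged 9.03 ± 0.209 CPM in N_12 and 2.44 ± 0.0316 CPM in DMSO (SD, n = 2 each). With 4 libraries in 2 groups this likeness describes little beyond a similar rise.

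Promoter windows of 300 bases, from 250 bases before to 50 after an annotated start, were available for 9 of the 10 genes in 18 windows (RefSeq, GRCh38.p14); NUPR1 was not matched. The windows of ATF5 and TRIB3 are shown because these 2 genes were higher in N_12, and that of PPP1R15A because it barely differed and holds 2 motif matches. Capitals mark matches. The ATF5 window is the second of 3, at chr19:49928955-49929254 on the plus strand, that of TRIB3 the first of 3, at chr20:381045-381344 on the plus strand, and that of PPP1R15A lies at chr19:48872171-48872470 on the plus strand.
ATF5: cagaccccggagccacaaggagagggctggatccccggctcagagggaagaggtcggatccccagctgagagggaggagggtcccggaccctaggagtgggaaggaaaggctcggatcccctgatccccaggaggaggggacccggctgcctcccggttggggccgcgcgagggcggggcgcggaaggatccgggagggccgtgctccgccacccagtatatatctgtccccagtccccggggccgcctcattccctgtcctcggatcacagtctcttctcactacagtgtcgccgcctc
TRIB3: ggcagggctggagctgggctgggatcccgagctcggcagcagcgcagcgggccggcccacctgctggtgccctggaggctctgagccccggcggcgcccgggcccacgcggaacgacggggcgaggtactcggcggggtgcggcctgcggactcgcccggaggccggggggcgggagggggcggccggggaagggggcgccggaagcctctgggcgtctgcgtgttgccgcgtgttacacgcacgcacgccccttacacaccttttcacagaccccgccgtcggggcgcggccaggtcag
PPP1R15A: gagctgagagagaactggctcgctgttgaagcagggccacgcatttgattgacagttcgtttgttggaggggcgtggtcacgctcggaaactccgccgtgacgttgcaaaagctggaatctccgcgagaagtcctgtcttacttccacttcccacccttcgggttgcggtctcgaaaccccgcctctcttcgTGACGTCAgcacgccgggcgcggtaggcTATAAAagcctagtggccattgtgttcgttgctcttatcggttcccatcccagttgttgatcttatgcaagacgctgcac

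Both strands were searched for the C/EBP-ATF response element to which ATF4 heterodimers bind (TGATGNAA, found in 3.62% of 35116 windows of all genes), the cyclic AMP response element (TGACGTCA, 1.85%), the ER stress element (0.0769%) and the TATA box (TATAAA, 11.5%). In the 3 windows each of ATF5 and TRIB3 these letters were not present. The window of PPP1R15A holds a cyclic AMP response element 58 to 51 bases and a TATA box 30 to 25 bases before the start. TATA matches also stood in windows of ATF3, ATF4 and CEBPB, and the ER stress element in none of the 18. The C/EBP-ATF element was present in 3 of the 18 windows (16.7%), in ATF3, CEBPG and CHAC1. Among ATF4 and CHOP targets outside the 10 it was present in 14 of 52 windows (26.9%), 1 in each of 14 of the 38 genes with a window. It is printed here, on the strand that reads TGATGNAA, for the 3 members and for the 4 targets that were called higher and hold it. Several windows of 1 gene overlap, as those of ATF4 and TRIB3 do, and a match is not a bound site.
ATF3: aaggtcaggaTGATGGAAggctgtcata
CEBPG: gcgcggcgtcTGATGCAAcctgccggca
CHAC1: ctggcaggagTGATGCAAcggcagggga
ASNS: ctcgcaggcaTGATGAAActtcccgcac
SLC1A4: cggctggagaTGATGCAAacgggagccg
IARS1: cgcacggaggTGATGCAAcgcgctgaaa
MARS1: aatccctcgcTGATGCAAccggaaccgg

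Distances are to the annotated start of the window that holds the element. This is the first window of ATF3 and ASNS and the second of CEBPG and SLC1A4, whose other windows hold no such match. The element lies 191 to 184 bases before that start in ATF3 (chr1:212565206-212565233, plus strand) and 42 to 35 before it in CEBPG (chr19:33374061-33374088, plus strand). In CHAC1 it lies 209 to 202 before the start (chr15:40953252-40953279, minus strand). In ASNS it lies 68 to 61 bases before the start (chr7:97872459-97872486, minus strand) and in IARS1 13 to 6 before it (chr9:92293693-92293720, plus strand). In SLC1A4 (chr2:64989382-64989409, minus strand) and MARS1 (chr12:57488054-57488081, minus strand) it spans the start itself. None of the 3 members that hold the element was called. Of 13 tested targets that hold it 4 were called higher and 0 lower (median log2 fold change 0.60, 12 above 0). Of 22 tested targets with a window and no match, 4 were called higher and 1 lower (median 0.36, 16 above 0). Of all tested genes 0.822% were called higher and 1.43% lower. The sets also differ in gene class. The tRNA synthetase genes AARS1, CARS1, GARS1, IARS1, MARS1, NARS1 and TARS1 hold the element, and EPRS1, SARS1 and WARS1 do not. The difference between the sets was not tested.

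Targets of ATF4 and CHOP outside the 10 genes were counted next. Of 46 tested targets, edgeR called 8 higher and 1 lower in N_12, where 0.822% of all tested genes were called higher and 1.43% lower. The targets had a median log2 fold change of 0.36, and 76.1% were above 0 (51.0% of all tested genes). Because the list was chosen with earlier results of these data known, its counts and adjusted p-values are a description. The highest rise was that of the glycine transporter gene SLC6A9, at 15.8 ± 2.26 CPM in N_12 and 6.09 ± 0.339 CPM in DMSO (SD, n = 2 each; log2 fold change 1.37, edgeR adjusted p = 0.0188). BBC3 (PUMA), a pro-apoptotic gene also driven by p53, rose 2.45-fold (edgeR adjusted p = 0.0212). GDF15, a secreted stress hormone that p53 induces as well, had 368 and 388 CPM in N_12, against 165 and 148 CPM in DMSO (log2 fold change 1.27, edgeR adjusted p = 0.00606). The serine synthesis gene PSAT1 rose 2.19-fold (edgeR adjusted p = 0.0101), and SLC1A4, IARS1, MARS1 and the asparagine synthetase gene ASNS rose by 1.17, 1.12, 0.87 and 0.85 on the log2 scale.

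Not all targets moved that way. DDIT4 (REDD1), an mTORC1 inhibitor that low oxygen also induces, fell to 412 ± 83.0 CPM in N_12, against 964 ± 155 CPM in DMSO (SD, n = 2 each; log2 fold change -1.23, edgeR adjusted p = 0.0237). TNFRSF10B, the death receptor gene DR5 that CHOP induces, had 320 ± 2.91 CPM in N_12 and 320 ± 26.5 CPM in DMSO, and ERO1A, a CHOP-induced oxidase of the endoplasmic reticulum, had 152 ± 38.4 CPM in N_12 and 273 ± 20.3 CPM in DMSO without being called. SLC38A2, an abundant amino acid transporter gene, had 747 ± 124 CPM in N_12 and 584 ± 14.4 CPM in DMSO and was not called. The libraries of SLC7A5, another transporter, scattered widely in N_12, at 742 and 313 CPM, against 445 and 369 CPM in DMSO. All 11 tested tRNA synthetase genes of the list had a positive log2 fold change, and 2 of them were called. DESeq2 called 18 targets higher and 5 lower and limma-voom 5 higher and 1 lower. Without either N_12 library edgeR lost every call, of targets and of all other genes. The median of the targets was 0.38 without N_12 replicate 1 and 0.33 without N_12 replicate 2. It was 0.41 without DMSO replicate 1 and 0.25 without DMSO replicate 2. BBC3 lost its call with limma-voom (adjusted p = 0.0503), and with non-robust dispersions edgeR called 0 targets lower, which ended the call of DDIT4. TNFRSF10B, ERO1A and SLC7A5 were named after their values were seen.

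**Figure D4:**
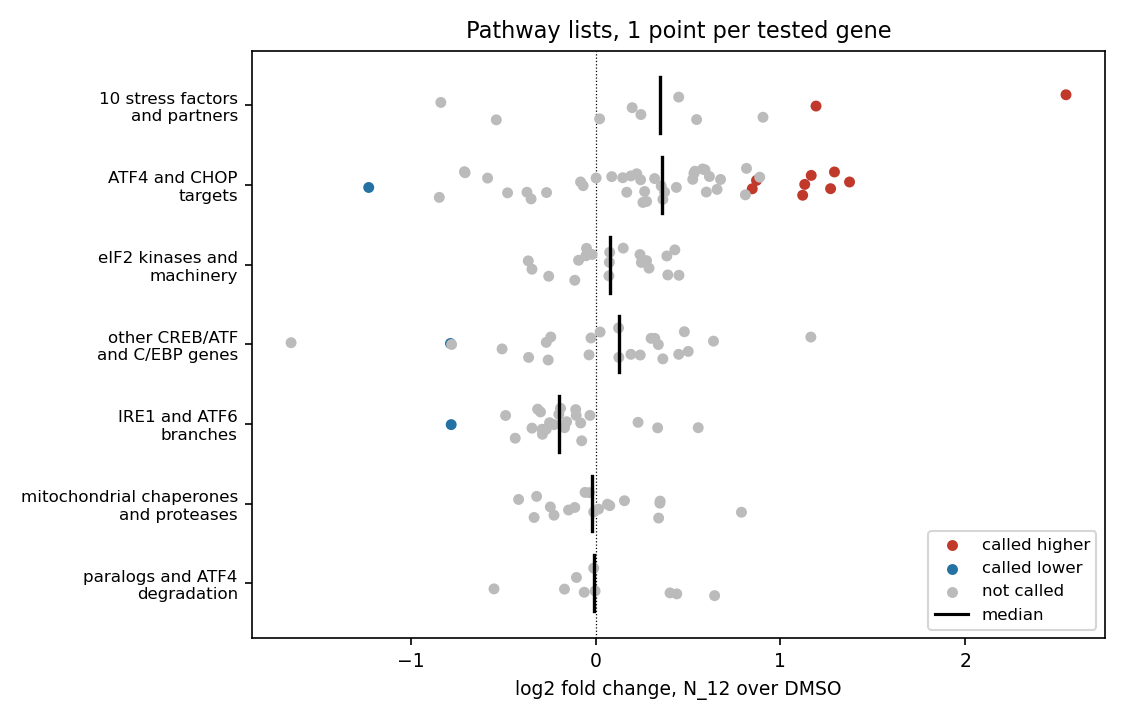
Log2 fold change (N_12 over DMSO) of every tested gene in the 10 stress genes and in 6 pathway lists, coloured by edgeR call, with the median as a bar. Targets of ATF4 and CHOP have a median of 0.36 and 8 of 46 genes called higher. Genes of the IRE1 and ATF6 branches have a median of -0.20 and 1 of 23 genes called lower. Of all tested genes 0.822% were called higher and 1.43% lower.

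Upstream of ATF4, the eIF2 kinases and the eIF2 machinery had 0 of 20 genes called by edgeR, by DESeq2 or by limma-voom. Their median log2 fold change was 0.08. At an unadjusted p under 0.05 edgeR had 2 of them higher and 2 lower, beside 3081 of all 14105 tested genes. EIF2AK4 (GCN2), the kinase that senses uncharged tRNA, had 103 ± 2.41 CPM in N_12 and 75.3 ± 18.3 CPM in DMSO, and EIF2AK3 (PERK), the kinase of the endoplasmic reticulum, 44.3 ± 3.97 CPM in N_12 and 36.6 ± 2.34 CPM in DMSO. GCN1, which activates GCN2 on stalled ribosomes, had 338 ± 43.2 CPM in N_12 and 305 ± 21.7 CPM in DMSO. The constitutive eIF2 phosphatase subunit gene PPP1R15B, paralog of PPP1R15A, had 265 ± 25.5 CPM in N_12 and 340 ± 40.0 CPM in DMSO. The kinases act by phosphorylation, which these levels do not show. EIF2AK3, EIF2AK4 and PPP1R15B were named for their roles with their values known.

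The IRE1 and ATF6 branches of the unfolded protein response do not run through ATF4. Of their 23 tested genes edgeR called 0 higher and 1 lower, where 0.822% of all tested genes were called higher and 1.43% lower. DESeq2 called 1 higher and 1 lower, and limma-voom 0. At an unadjusted p under 0.05 edgeR had 2 higher and 5 lower, beside 3081 of all 14105 tested genes. Of the 23 genes 87.0% had a negative log2 fold change (49.0% of all tested genes). The median was -0.20, with -0.12 without DMSO replicate 1 and -0.29 without DMSO replicate 2. HSPA5 (BiP), the main chaperone of the endoplasmic reticulum, fell to 1725 ± 9.41 CPM in N_12, against 2963 ± 396 CPM in DMSO (SD, n = 2 each; log2 fold change -0.78, edgeR adjusted p = 0.0390), and was the 1 gene called. That call ended without DMSO replicate 1 (log2 fold change -0.64, edgeR adjusted p = 0.116), without either N_12 library (edgeR adjusted p = 0.157 and 0.177), with limma-voom (adjusted p = 0.0634) and with non-robust dispersions (edgeR adjusted p = 0.0613). HSP90B1 had 1595 ± 200 CPM in N_12 and 1895 ± 460 CPM in DMSO, with overlapping groups.

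In the wider CREB/ATF and C/EBP family, edgeR called 0 higher and 1 lower of 24 tested genes. Over all tested genes it called 0.822% higher and 1.43% lower. DESeq2 called 1 of the family higher and 2 lower (4.42% and 5.41% of its genes), and limma-voom 0. At an unadjusted p under 0.05 edgeR had 2 higher and 3 lower, beside 3081 of all 14105 tested genes. NFIL3, a repressor of the family, fell to 60.4 ± 1.64 CPM in N_12, against 104 ± 8.68 CPM in DMSO (SD, n = 2 each; log2 fold change -0.78, edgeR adjusted p = 0.0366), a call lost in the same settings as that of HSPA5, with edgeR adjusted p = 0.149 without DMSO replicate 1 and limma-voom adjusted p = 0.0635. DBP, among the most abundant of them, had 96.4 ± 10.2 CPM in N_12 and 98.7 ± 16.3 CPM in DMSO. CREB3L2 had 36.6 and 39.1 CPM in N_12, against 201 and 35.5 CPM in DMSO, so DMSO replicate 1 stood far above the other libraries (log2 fold change -1.65, not called). CREB3L2 was named after its values were seen. BATF and CEBPE had 0 counts in every library.

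Mitochondrial chaperones and proteases have been linked to ATF5 in the mitochondrial unfolded protein response. Of 18 such genes edgeR called 0, DESeq2 called 1 higher, and limma-voom 0. At an unadjusted p under 0.05 edgeR had 2 higher and 1 lower, beside 3081 of all 14105 tested genes. The median log2 fold change of the 18 genes was -0.02. HSPD1, the HSP60 chaperonin gene, had 668 ± 70.0 CPM in N_12 and 683 ± 121 CPM in DMSO. HSPA9, the mitochondrial HSP70 gene, had 412 ± 5.45 CPM in N_12 and 238 ± 50.3 CPM in DMSO (log2 fold change 0.79, not called by edgeR). Paralogs of the 10 genes and genes that degrade ATF4 were called in 0 of 9 cases by edgeR and by limma-voom. DESeq2 called 1 higher and 1 lower. At an unadjusted p under 0.05 edgeR had 2 of the 9 higher and 1 lower, beside 3081 of all 14105 tested genes. TRIB1, a paralog of TRIB3, had 236 ± 25.1 CPM in N_12 and 254 ± 15.3 CPM in DMSO, and SKP1, part of the ubiquitin ligase that marks ATF4, 134 ± 13.6 CPM in N_12 and 134 ± 9.30 CPM in DMSO. NUPR2 had 0 counts throughout.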

How the data were processed

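The series measured mRNA by sequencing in 4 libraries of HCT116 cells, grouped by sample titles. The authors deposited raw counts as whole numbers, 1 row per human Ensembl identifier. For the aligner, the counting tool and strandedness, the labels hold no statement. Mouse genome builds stand in the submitters' processing notes although the identifiers are human, so the build behind the counts is unknown. Coordinates and promoters printed here are RefSeq's. Symbols were matched for 20148 of 20263 identifiers, and exon lengths, GC content and overlaps came from GENCODE release 29.

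In R 4.3.3, edgeR 4.0.16 filtered genes by expression, scaled libraries by TMM and fitted a robust quasi-likelihood model of group alone, with a two-sided test and Benjamini-Hochberg adjustment over 14105 genes at 0.05. Standard errors came from the F statistic. Likeness to ATF5 used log2 CPM with a prior count of 2, over genes with a symbol and at least 1 CPM on average. Alternatives were other scalings, other filters, GC and length offsets, a replicate term, leaving out each library, limma-voom (limma 3.58.1), DESeq2 1.42.0 and non-robust dispersions. The 10 genes, the pathway lists and the rule for named genes (the 10, up to 4 called and the 2 most abundant of each list, and the 5 nearest ATF5) were chosen with earlier results of these data known. Replicate libraries were not copies of each other: a chi-square statistic of their counts, over its degrees of freedom, was 59.6 in N_12 and 37.9 in DMSO. Intervals cover the spread between these libraries. The planned comparison of protein sequences was not made.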

Additional observations from a re-analysis of the deposited data

How the results depend on the processing

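Over all genes 317 calls became 963 with a replicate block, 985 with GC and length offsets, 86 with both, 1225 with DESeq2, and 131 with limma-voom and also with non-robust dispersions. Leaving out 1 library gave 0 to 451 calls, with 0 without N_12 replicate 1 and without N_12 replicate 2, where 2855 and 2763 genes still had an unadjusted p under 0.05. Of the 10 stress genes 2 were called, 4 with a replicate block and 4 with DESeq2, and 0 to 4 with 1 library left out (0 without either N_12 library, with 4 at an unadjusted p under 0.05 each time, and 4 without DMSO replicate 2). The 137 other listed genes had 11 calls, 26 with a replicate block, 5 with the block and GC offsets together, 28 with GC and length offsets, 31 with DESeq2, 6 with limma-voom and 5 with non-robust dispersions, and 0 to 14 with 1 library left out (0 without either N_12 library). ATF5 and TRIB3 lost the call only without an N_12 library, at log2 fold changes of 2.48 and 2.59 for ATF5 and 1.30 and 1.05 for TRIB3. With 1 library left out, the log2 fold change of ATF3 ran from -0.99 to 0.12 (above 0 without DMSO replicate 1) and that of PPP1R15A from -0.021 to 0.068 (below 0 without DMSO replicate 2). The cause of these shifts was not tested. The higher share of calls, 36.6%, was 46.2% with library totals in place of TMM, 45.5% with a replicate block, 45.2% with GC and length offsets, 45.0% with DESeq2 and 50.1% without DMSO replicate 2. Same-numbered libraries did not deviate together (correlation of deviations -0.0895), so the numbers are not a known pairing. The block added calls of DDIT3 and CHAC1, which the block with GC offsets did not make, and the block with GC offsets ended those of HSPA5, NFIL3 and SLC6A9. Of the 5 genes nearest ATF5, 4 were again among the nearest 5 with a prior count of 0.5, where SLC16A6 took the place of NDUFC2-KCTD14. Depth limits NUPR1 most.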
